A study of Mus musculus with 2 samples.

Results

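The small leucine-rich proteoglycans decorin (Dcn), biglycan (Bgn), asporin (Aspn), lumican (Lum), fibromodulin (Fmod), prolargin (Prelp), osteomodulin (Omd) and osteoglycin (Ogn), with dermatopontin (Dpt), make up a group of 9 genes among the 22180 that had a named transcript cluster on the array, and all 9 were measured. They were chosen by gene name for their place in the collagenous matrix of the dermis and selected on a measured value, the opposite directions of Lum and Dcn between the arrays. The differences below therefore come from the contrast that chose them and are a description. The tissue was dorsal skin from males of the albino strain BALB/cAJcl, aged 7 weeks, with 1 Affymetrix Mouse Gene 2.0 ST array for the sample labelled as a saline control and 1 for the sample labelled FGF18. For the FGF18 sample the series describes hair removal to start hair growth, 100 µg of FGF18 with heparin at 5 µg/µl given intraperitoneally 6 days later, γ-rays at 6 Gy to the whole body 24 h after that, and skin taken 4 h after irradiation. The labels do not state whether the control received heparin or radiation, nor how many mice gave each sample. With 1 array per group there was no spread between samples and no test, so every difference compares these 2 arrays and cannot be assigned to FGF18 alone. In whole skin, fewer cells of a type and less RNA per cell cannot be told apart.

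Small leucine-rich proteoglycans are secreted proteins built of leucine-rich repeats that bind collagen fibrils and set their thickness and spacing. Decorin and biglycan carry chondroitin or dermatan sulfate chains, whereas lumican, fibromodulin and osteomodulin can carry keratan sulfate. Dermatopontin is not a member of this protein family, but it binds decorin and collagen and is made by dermal fibroblasts. Decorin, biglycan and asporin belong to class I of the family, lumican, fibromodulin, prolargin and osteomodulin to class II, and osteoglycin to class III.

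The genes did not move together. Lum and Dpt were lower on the FGF18 array, by 1.93-fold and 1.61-fold, while Dcn was higher by 1.34-fold and the brighter cluster of Bgn by 1.49-fold. The other members differed by at most 1.23-fold in any cluster, except Omd, which was dim on both arrays. Differences are FGF18 minus saline in log2(intensity + 1), and on that scale the folds of dim genes are understated. A cluster below the median intensity of its array (14.0 for saline, 13.8 for FGF18) is not shown above background there and is given without a fold. Intensities of different probe sets share no scale, so levels are compared between arrays and not between genes.

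Of the 9 members 4 were higher and 5 lower, with a median difference of -0.05 beside 0.00 over all genes. In all, 2 members were at least 1.5-fold lower (Lum and Dpt) and 1 at least 1.5-fold higher (Omd), against 4.15% and 2.61% of all genes. The median level over genes was 4.15 in log2 units, and 7 members reached it. Of these, 2 passed 1.5-fold on the lower side and 0 on the higher side, where 4.63% and 3.64% of the 11090 genes of that brightness did. No member passed 2-fold in either direction, where 1.65% of those 11090 genes did on the lower side and 0.379% on the higher side. With so few members and the contrast already used to choose them, nothing is read from these shares.

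**Figure D1:**
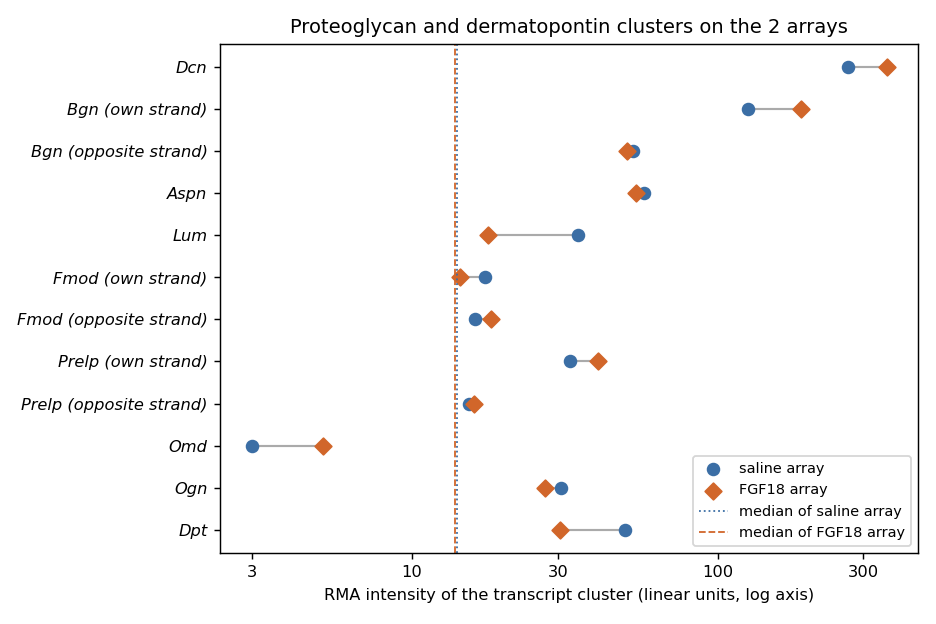
RMA intensity (linear units, log axis) of each of the 12 transcript clusters of the 9 genes on the saline array (circles) and the FGF18 array (diamonds), with vertical lines at the median intensity of each array. Lum and Dpt were dimmer and Dcn and the own-strand cluster of Bgn brighter on the FGF18 array, and Omd lay below both medians. "Own strand" and "opposite strand" are read from the numbering of the clusters.

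Among the class I genes, Dcn had the largest difference that rests on a single cluster. Decorin binds collagen and sequesters the growth factor TGF-beta. Dcn read 266 in saline and 358 after FGF18, a difference of 0.42 (1.34-fold higher). Its difference was as high or higher in 7.14% of the 238 genes whose mean level lay within 0.5 log2 units of its own.

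Bgn had 2 clusters that gave different answers. Biglycan is a close relative of decorin that also acts as a signal to innate immune receptors when released from the matrix. Its brighter cluster read 125 in saline and 187 after FGF18, a difference of 0.58 (1.49-fold higher). The other read 53.0 and 50.6, a difference of -0.07. The average over both was 0.26. The cluster numbers on this array run by chromosome and strand, and the 16 nearest clusters of genes with a listed strand around the brighter Bgn cluster were all on the plus strand, as Bgn is. Around the dimmer cluster all 17 were on the minus strand. The dimmer cluster is therefore placed among genes of the opposite strand, and what it detects was not tested.

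Aspn, whose product competes with decorin for collagen and takes part in mineralisation, was nearly equal on both arrays. It read 57.3 in saline and 54.2 after FGF18, a difference of -0.08.

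Among the class II genes, Lum stood lowest. Lumican regulates fibril growth in skin and cornea. Lum read 35.0 in saline and 17.7 after FGF18, a difference of -0.95 (1.93-fold lower). Of the 4893 genes within 0.5 log2 units of its level, 0.858% were as low or lower. Its FGF18 value lay not far above that array's median of 13.8, and with a pseudocount of 16 the difference was -0.60 (1.51-fold lower).

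The other class II genes showed little. Prolargin anchors basement membranes to the connective tissue below, and fibromodulin guides collagen cross-linking. The own-strand cluster of Prelp read 32.9 in saline and 40.7 after FGF18, a difference of 0.30 (1.23-fold higher). Its second cluster, placed among genes of the opposite strand, read 15.4 and 15.9, and the average difference was 0.17. The own-strand cluster of Fmod read 17.4 and 14.3 (difference -0.26), its second cluster 16.1 and 18.1 (difference 0.16), and the average was -0.05. The clusters of Fmod thus differed in direction, and both lay close to the array medians. Omd, known from bone and tooth matrix, read 2.99 in saline and 5.11 after FGF18. Both values lay below the array medians, so its count as a member at least 1.5-fold higher rests on values not shown above background.

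Ogn, the class III gene, which encodes a proteoglycan also called mimecan, read 30.8 in saline and 27.1 after FGF18, a difference of -0.18 (1.13-fold lower). Dpt read 49.7 in saline and 30.5 after FGF18, a difference of -0.69 (1.61-fold lower). Of the 4248 genes within 0.5 log2 units of the level of Dpt, 2.82% were as low or lower. With a pseudocount of 16 the difference of Dpt was -0.50 (1.41-fold lower), under the 1.5-fold threshold.

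**Figure D2:**
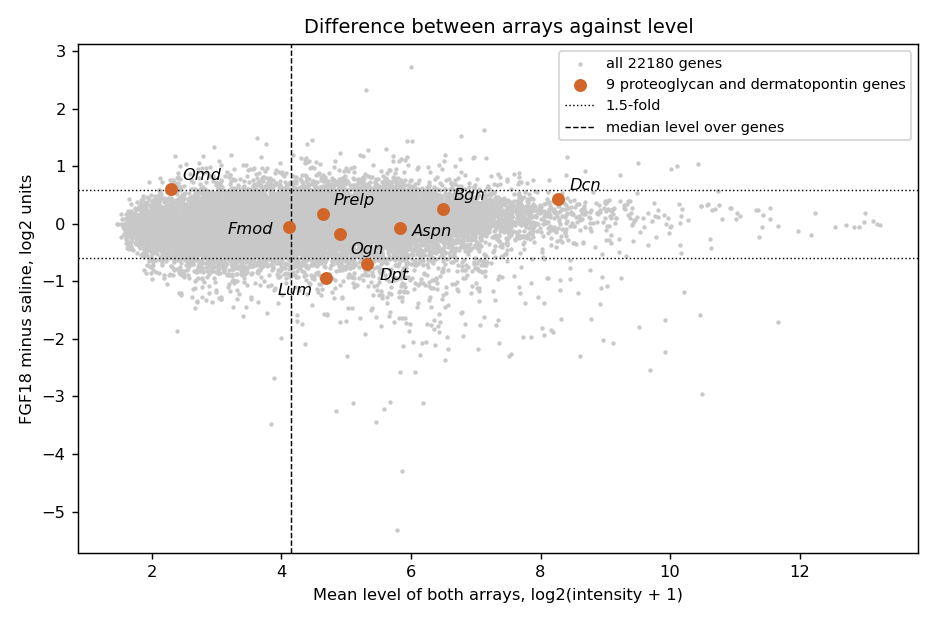
Difference between the arrays (FGF18 minus saline, log2 units) against the mean level of both arrays, log2(intensity + 1), for all 22180 genes (grey) and the 9 proteoglycan and dermatopontin genes (orange, clusters of a gene averaged). Lum at -0.95 and Dpt at -0.69 lie below the 1.5-fold line, Dcn at 0.42 lies near the upper edge of the few genes at its level, and Omd lies at the dim end.

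The scale for these differences comes from the array alone. Over 249 genes with 2 clusters at or above the median level, disagreement between clusters gave a cluster's difference a standard deviation of 0.26. The differences of Lum, Dpt and Dcn were larger than this, and those of Ogn and Aspn smaller. Lum and Dcn were chosen on their differences, so their place on this scale is a description and no test. For the genes with 2 clusters the averages of Bgn, Prelp and Fmod were 0.255, 0.172 and -0.049. The standard deviation of 0.256 is for a single cluster and is too wide for an average of 2, so these averages are not set against it. Their own-strand clusters were at 0.576, 0.299 and -0.261, all larger than 0.256. This value covers disagreement between probe sets and holds nothing about variation between mice. Among all 11090 genes of at least median level the middle 90% of differences ran from -0.57 to 0.53, so that Lum and Dpt lay outside this range and Dcn inside it.

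Most of the proteoglycan genes lie in 3 groups in the genome. All 3 groups hold no protein-coding gene other than those named, in the mouse gene table of assembly GRCm38.p6. Dcn (chr10:97479500-97518163) and Lum (chr10:97565501-97572703) are neighbours separated by 47.3 kb, within a group of 202 kb that also holds Kera and Epyc, and they had differences of opposite sign, which is the value they were chosen on. The cornea gene Kera read 10.2 in saline and 8.05 after FGF18, whereas the cartilage gene Epyc read 4.65 and 6.56, all below the array medians.

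On chromosome 13, a group of 120 kb holds Ecm2, Aspn (chr13:49544443-49567565), Omd (chr13:49582462-49592612) and Ogn (chr13:49608015-49624501). Aspn and Ogn were both slightly lower, Omd was dim, and Ecm2 carried the same intensity of 10.4 on both arrays. Values exactly equal as deposited, with no tolerance, occurred in 2026 of 41345 clusters. On chromosome 1, a group of 151 kb holds Optc, Prelp (chr1:133910304-133930102) and Fmod (chr1:134037254-134048280). Optc, which encodes opticin of the eye, read 23.2 in saline and 15.6 after FGF18, a difference of -0.54, while its neighbour Prelp was higher. Dpt (chr1:164796663-164824274) and Bgn (chrX:73483601-73495936) lie apart from these groups.

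RefSeq promoter sequences (GRCm38.p6) were at hand for 7 of the 9 members. Those of Bgn and Dpt are shown because these were the members with a listed promoter, apart from the dim Omd, whose clusters differed most, in opposite directions. Each is the 250 bases before the gene's start, 5′ to 3′ on the plus strand, chrX:73483351-73483600 for Bgn and chr1:164796413-164796662 for Dpt. Capitals mark each match, on either strand, to any of 7 motifs named next.
Bgn: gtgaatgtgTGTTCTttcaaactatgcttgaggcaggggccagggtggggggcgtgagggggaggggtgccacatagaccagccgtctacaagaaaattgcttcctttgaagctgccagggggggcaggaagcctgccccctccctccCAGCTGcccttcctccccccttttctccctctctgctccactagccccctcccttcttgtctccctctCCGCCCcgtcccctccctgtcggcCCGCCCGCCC
Dpt: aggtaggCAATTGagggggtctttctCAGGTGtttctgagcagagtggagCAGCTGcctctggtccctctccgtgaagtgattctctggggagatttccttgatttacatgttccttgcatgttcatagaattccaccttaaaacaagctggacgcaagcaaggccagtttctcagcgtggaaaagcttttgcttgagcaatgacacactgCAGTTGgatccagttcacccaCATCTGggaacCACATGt

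The motifs searched were TATAAA for the TATA box, GGGCGG for the GC box, CCAAT for the CCAAT box, TGANTCA for AP-1, CANNTG for the E-box, CAGAC for a Smad element and TGTTCT for a glucocorticoid receptor half-site, with overlapping matches counted. The Bgn promoter held 3 GC boxes, at 34, 10 and 6 bases before the start, of which the last pair overlap, plus 1 E-box and 1 glucocorticoid half-site. Its GC content was 64.4%. The Dpt promoter held 6 E-boxes and none of the other motifs, and its GC content was 48.8%. Over 32851 promoters of the same length, 32.7% held a GC box, 66.2% an E-box and 16.1% a glucocorticoid half-site.

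Of the other 5 listed promoters, Aspn and Ogn each held 2 matches to TATAAA, which 12.4% of promoters hold, and all 4 lay over 150 bases before the start. Aspn also held 1 CCAAT match and Prelp 1, a motif in 33.8% of promoters. The Prelp sequence (chr1:133921402-133921651) lies inside the span of the gene, so it precedes an inner start and not the outermost one. The CAGAC motif, in 42.2% of promoters, occurred in those of Prelp and Fmod, and TGANTCA, in 6.75%, in none of the 7. The Omd promoter held no match to any of the 7 motifs. These are matches of letters and not sites of binding.

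Collagens are the partners of these proteins in the fibril. Of 12 fibrillar and fibril-associated collagen genes 5 lay higher and 7 lower, and the median was -0.04. Among the 11 that reached the median level 5 were higher (median -0.02), where 59.4% of all such genes were (median 0.07). In this list, 0 were past 1.5-fold, where 2.61% of all genes were on the higher side and 4.15% on the lower. Col3a1, the chain of type III collagen, read 249 in saline and 184 after FGF18 (difference -0.43), and Col2a1, the cartilage collagen, 34.6 and 23.2 (difference -0.56). Col12a1, a fibril-associated collagen, had a difference of 0.38 and Col5a3 one of 0.24. The type I collagen genes Col1a1 and Col1a2, named after their values were seen, had differences of -0.33 and -0.25. Of 5 collagen VI chains 2 were higher and 3 lower (median -0.14), from Col6a6 at -0.33 to Col6a3 at 0.31, with Col6a2 at -0.18 and Col6a1 at 0.07.

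Other fibril-binding matrix genes were mostly on the side of Dcn. Of 19 measured 16 lay higher and 3 lower, and the median was 0.17. In all, 2 were at least 1.5-fold higher, where 2.61% of all genes were. Thbs1, the gene of the TGF-beta activator thrombospondin 1, read 15.0 in saline and 32.8 after FGF18 (difference 1.08), and Fn1, fibronectin, 39.9 and 64.5 (difference 0.68). Sparc had a difference of 0.01, and the elastin gene Eln had a difference of -0.46. Among the 15 that reached the median level 14 were higher (median 0.27), where 59.4% of all such genes were (median 0.07).

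Of 18 measured genes for collagen processing and cross-linking 10 lay higher and 6 lower, and the median was 0.07. Among the 12 that reached the median level 8 were higher (median 0.19), where 59.4% of all such genes were. In all, 1 was at least 1.5-fold higher, beside 2.61% of all genes. That gene was Lox, lysyl oxidase, which read 10.3 in saline and 17.3 after FGF18 and lay below the median in saline. The prolyl hydroxylase gene P4ha1 and the procollagen protease gene Bmp1 had differences of 0.42 and 0.44, and Pcolce2 and Serpinh1 differences of -0.31 and -0.29.

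Enzymes that build the sugar chains of these proteoglycans had no common direction. Of 21 chondroitin and dermatan sulfate genes 10 lay higher and 9 lower, and the median was 0.00. Among the 16 that reached the median level 9 were higher (median 0.04), where 59.4% of all such genes were. In this list, 0 were past 1.5-fold, where 2.61% of all genes were on the higher side and 4.15% on the lower. Xylt2, which starts the chain, had a difference of 0.42 and Csgalnact1 one of 0.35, while the xylose kinase gene Fam20b had one of -0.43 and Chst13 one of -0.37. Of 11 genes for keratan sulfate chains and tyrosine sulfation 4 were higher and 7 lower (median -0.07, 0 past 1.5-fold). Among the 6 of them that reached the median level 4 were higher and 2 lower (median 0.11). B4galt1 had a difference of 0.51, Tpst2 one of 0.19, Fut8 one of -0.07 and B3gnt2 one of -0.09.

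Proteases that cut these proteins numbered 14, of which 8 were higher and 6 lower (median 0.07), and 0 were past 1.5-fold. Of all genes, 2.61% were past it on the higher side and 4.15% on the lower side. Of the 6 proteases that reached the median level 5 were higher (median 0.33), where 59.4% of all such genes were. Bmp1 at 0.44 and Htra1 at 0.37 were the highest of those 6, with Mmp2 at 0.22 and Adamts1 at -0.11. Of 20 ligands and receptors that the proteoglycans bind 14 were higher and 5 lower (median 0.22, 0 past 1.5-fold). Of the 13 that reached the median level 10 were higher, where 59.4% of all such genes were. The list included Itgb1 at 0.52, Tgfbr1 at 0.49, Tgfbr2 at -0.07 and Kdr at -0.43. Of 11 genes known to respond to TGF-beta or glucocorticoid 8 were higher and 3 lower (median 0.18). Among the 9 that reached the median level 8 were higher, beside the same 59.4%. In that list 2 genes, Pdk4 at 1.63 and Zbtb16 at 0.87, were at least 1.5-fold higher, where 2.61% of all genes were, while Tgfbi stood at 0.05 and Sgk1 at -0.37. Of 9 other small leucine-rich proteoglycans and relatives 3 were higher, 4 lower and the rest equal (median 0.00, 0 past 1.5-fold). The brighter of these were Chadl at 0.25, Podnl1 at 0.00 and Optc.

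**Figure D3:**
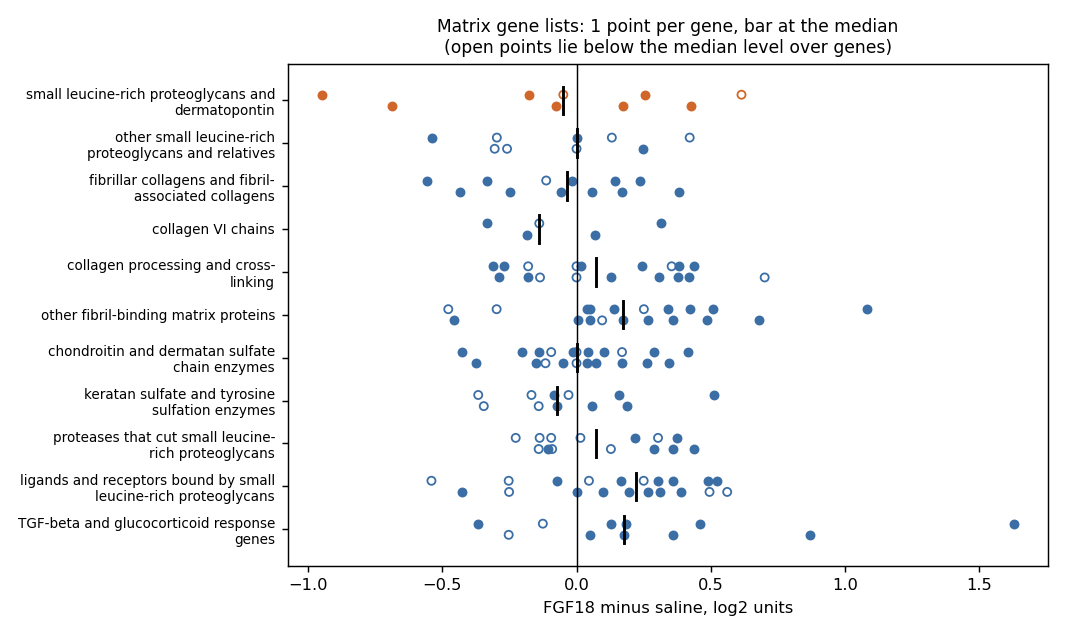
Difference between the arrays (FGF18 minus saline, log2 units) for each measured gene of 11 lists around the collagen matrix, with a bar at each list's median and open points for genes below the median level over genes. The proteoglycan and dermatopontin genes span -0.95 to 0.61 around a median of -0.05, and the fibril-binding matrix proteins lie mostly above 0.

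Among the genes of the 10 lists described above that reached the median level, those nearest to Dcn in difference over the 2 arrays were Vcan, the gene of the large proteoglycan versican, and P4ha1, at gaps of 0.002 and 0.006 log2 units. Vcan read 125 in saline and 168 after FGF18. Nearest to Lum were Col2a1 and Optc, at gaps of 0.39 and 0.41. The standard deviation of 0.26 is for the difference of a single cluster and is too narrow for a gap between 2 genes. The gaps are therefore not set against it, and whether either gene is close to Lum was not tested. The marker lists of cell types were not searched for likeness.

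Markers of other cells of the skin differed between the arrays as well, and their part in the differences of the proteoglycans was not tested. Counts of higher markers cover every measured marker, dim ones included. Counts among the markers that reached the median level stand beside 59.4% higher among all genes that did. Where no such count is given, all measured markers of the list reached that level. Of 11 fibroblast markers 5 were higher and 6 lower (median -0.13), with summed intensities of 1018 in saline and 868 after FGF18. Bright probe sets dominate such sums, here Col1a1 (408 and 323) and Col3a1 (249 and 184). Among the 9 fibroblast markers that reached the median level 3 were higher (median -0.14), and they ran from S100a4 at -0.62 to Vim at 0.24. Markers of the papillary dermis, the layer next to the epidermis, were higher in 7 of 9 (median 0.41), with Lef1 at 0.79 and Dpp4 at -0.50. Reticular dermis and fascia markers were higher in 4 of 9 (median -0.03), with Gpx3 at 0.77 and Gsn at -0.35. Of the 5 that reached the median level 4 were higher (median 0.33). Dermal papilla and sheath markers were higher in 9 of 11 (median 0.30), with Fgf7 at 0.50 and Sox2 at -0.07. Of the 7 that reached the median level 6 were higher (median 0.25).

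In the epidermis, all 9 markers of differentiated keratinocytes were lower (median -1.96), with summed intensities of 16089 and 4191, from Krt1 at -2.96 to Lor at -0.95. All 11 inner root sheath and hair shaft genes were higher (median 1.002), with sums of 3479 and 6824, from Krt33a at 0.73 to Krt31 at 1.22. Basal and outer root sheath markers were higher in 6 of 7 (median 0.37), with Krt17 at 0.76 and Krt14 at -0.81.

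Skeletal muscle markers were lower in 8 of 12 (median -0.16), with Casq1 at -1.14 and Myh1 at 0.36, and the sums over all 12 were 6361 and 5941. Bright probe sets weigh most in these sums, the brightest being Myh4 at 1832 in saline and 1370 after FGF18. Adipocyte markers were lower in 6 of 9 (median -0.09), with Plin4 at 1.02 and Retn at -0.55. Of the 8 that reached the median level 3 were higher and 5 lower (median -0.08). Macrophage markers were higher in 9 of 10 (median 0.21), with Lyz2 at 0.57 and Csf1r at 0.04. All 6 that reached the median level were higher (median 0.36). Smooth muscle and pericyte markers were higher in 5 of 8 (median 0.18), with Mcam at 0.47 and Rgs5 at -0.25. Of the 7 that reached the median level 5 were higher (median 0.24). Endothelial markers were higher in 4 and lower in 4 of 9 (median 0.00), with Lyve1 at 0.27 and Cdh5 at -0.66. Of the 5 that reached the median level 2 were higher and 3 lower (median -0.19). Schwann cell and melanocyte markers were higher in 5 of 7 (median 0.24), with Mlana at 0.81 and Mbp at -0.13. Of the 5 that reached the median level 4 were higher (median 0.35). Tenocyte markers were higher in 3 of 5 (median 0.17), mast cell markers in 3 of 8 (median 0.00), and cartilage and bone markers in 4 of 7 (median 0.05). Only 1 tenocyte marker, Scx at 0.27, and 1 mast cell marker, Kit at -0.05, reached the median level. Of the cartilage and bone markers 2 did, Sox9 at 0.08 and Col2a1 at -0.56. The counts of these lists thus rest mostly on values not shown above background.

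How the clusters and the scale were handled set the size of several differences. Lum, Dpt, Ogn and Aspn were lower and Dcn, Bgn, Prelp and Omd higher under all 7 alternatives. For a member with a single cluster only the loess trend could have turned the sign. The sameness of direction was thus largely fixed beforehand and says little about how firm a difference is. Lum ranged from -0.99 to -0.60 and Dcn from 0.31 to 0.43. Bgn ranged from 0.15 to 0.58, the latter with the own-strand cluster alone, which was also its brightest. Fmod ranged from -0.26 to 0.16 and was on the higher side only with the brightest cluster, which for this gene is the cluster placed among opposite-strand genes.

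**Figure D4:**
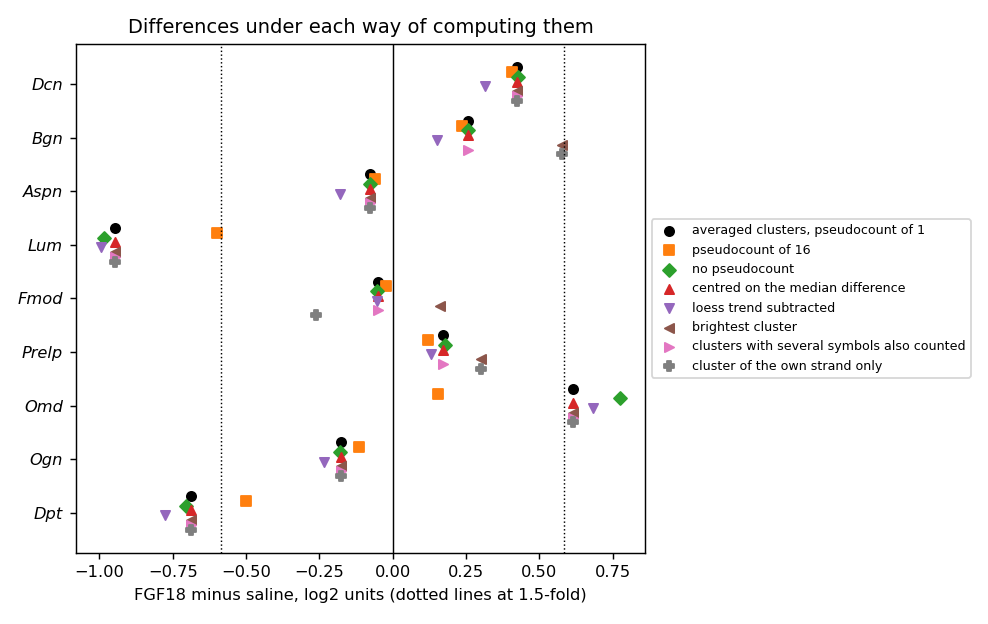
Difference between the arrays (FGF18 minus saline, log2 units) of each of the 9 genes when computed 8 ways, with dotted lines at 1.5-fold in each direction. Lum moves from -0.95 to -0.60 with a pseudocount of 16, and Bgn from 0.26 to 0.58 with its brightest or own-strand cluster, while Dcn stays between 0.31 and 0.43.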

How the data were processed

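Skin RNA was prepared with Trizol and given a biotin label, per the labels. The arrays were summarised by the authors in Affymetrix Expression Console with RMA, per the submitters' processing notes, which give no version. The authors' deposited table holds 1 intensity per transcript cluster and array, linear in scale as its values show. Arrays have no read depth, and 1 array per group limits the precision. Of 41345 clusters 23521 carried 1 gene symbol in the platform annotation, 1814 several and 16010 none. Clusters with 1 symbol were converted to log2(intensity + 1) and averaged by symbol, giving 22180 genes, of which 3 members had 2 clusters each. By Entrez identifier 23328 clusters matched the mouse gene table.

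Groups came from the source labels. The members, the 10 gene lists and the 16 marker lists were chosen with earlier results of these data known. Named genes were the members, the 2 highest and 2 lowest of each gene list (the highest and lowest of each marker list) at or above the median level, the 2 nearest in difference to Lum and to Dcn, and chromosomal neighbours. A cluster was assigned a strand where at least 80% of at least 5 neighbours, among the 10 nearest single-symbol clusters on each side and on its gene's chromosome, lay on 1 strand. For 15743 of 15762 clusters of single-cluster genes this was the gene's own strand. Alternatives are given at the end. The differences, the fold counts and the loess step were tested on simulated data with a single cluster per gene and changes larger than those of any member. The averaging of clusters, the strand runs and the motif search were not part of that test. Python 3.11.15, pandas 2.3.3 and statsmodels 0.14.6 were used.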

Additional observations from a re-analysis of the deposited data

How the results depend on the processing

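Alternatives were a pseudocount of 16 or none, centring on the median difference (0.00, so values were equal), subtraction of a loess trend on level (span 0.3), the brightest cluster, clusters with several symbols counted under each (none named a member), and, added after the data were seen, the own-strand cluster alone. With a pseudocount of 16 the difference of Dcn minus that of Lum was 1.004 in place of 1.37, the members at least 1.5-fold higher were 0 in place of 1, and those lower were 1 in place of 2. Restricting to members at or above the median level left 0 at least 1.5-fold higher. At 2-fold both counts were 0. The median over the members ran from -0.08 to 0.16 and was above 0 with the brightest clusters (0.16) and without Lum, the farthest member (0.06). A value was taken as moved when it changed by more than the disagreement between clusters (0.26). Of 63 values of single members under the alternatives, 59 moved by less than this, and the other 4 were Lum and Omd with a pseudocount of 16 and Bgn with its brightest or own-strand cluster. Many of the 63 could not move. Centring and the clusters with several symbols changed no member, and the choice of cluster changed none that had a single cluster. No replicate could be left out, and the arrays' signal over background is unknown, since no detection call was used here.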

Other observations

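Clusters placed among genes of the opposite strand are not particular to Bgn, Prelp and Fmod. Of 968 genes with exactly 2 single-symbol clusters, 493 had 1 cluster in a run of their own strand and 1 in a run of the opposite strand, and 88 had both in runs of their own strand. The own-strand cluster was the brighter in 390 of the 493 genes (79.1%). Over genes with both clusters at or above the median level, disagreement between clusters gave a standard deviation of 0.23 for 105 genes with 1 cluster on each strand and 0.26 for 24 genes with both on their own strand. For Bgn the choice between clusters moved the difference from -0.07 to 0.58.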
